A study of Mus musculus with 30 samples.

Results

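A panel of genes is commonly used to recognise reactive astrocytes whatever injury made them reactive. Transcripts of 10 genes of this panel were followed here in astrocytes sorted from the spinal cord of mice with experimental autoimmune encephalomyelitis (EAE). The members, Gfap, Vim, Lcn2, Serpina3n, Cd44, Timp1, Osmr, S1pr3, Steap4 and Aspg, were taken by gene symbol among protein-coding genes, and 10 of 10 were found in a table of 30952 genes, 17889 of them protein-coding. The strain was C57BL/6 in all groups, and EAE mice were female. EAE was induced at 8 to 10 weeks of age by immunization with MOG35-55, a myelin peptide, in complete Freund's adjuvant with pertussis toxin, and naive mice were not immunized. From a clinical score of about 1, EAE mice were gavaged for 3 days, 2 times a day, with vehicle (20% Captisol, a cyclodextrin that keeps compounds in solution) or with RIPK1inh-1 (GSK'547, 50 mg/kg), an inhibitor of the kinase RIPK1. Astrocytes were sorted as GLAST+CD11b-CD45-CD140a- cells and microglia as CD11b+CD45intCX3CR1+ cells from 4 naive, 6 EAE-vehicle and 5 EAE-RIPK1inh mice, and 15 libraries were made per cell type.

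Astrocytes answer injury and inflammation of the central nervous system by reactive gliosis, in which they enlarge, rebuild their intermediate filament network and secrete acute phase proteins, protease inhibitors and chemokines. Cytokines that signal through the shared receptor chain gp130 activate the transcription factor STAT3, a main driver of gliosis, while TNF and interleukin-1 act through NF-kB. Genes raised after both inflammatory and ischemic injury have been called pan-reactive, and those raised mainly after one or the other A1 and A2. RIPK1 is a kinase downstream of TNF receptors that controls cell death and inflammatory signaling.

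Values were log2 FPKM, a level per exon length and per sequenced fragment, so levels can be compared between genes. The authors quantile-normalized the 30 libraries to 1 distribution, which leaves read depth unknown. A gene with no fragments in a library kept a value that follows the listed order of genes and not expression, and is described here as without signal. The highest such value was 0 in naive astrocyte library 1, 1.69 in naive astrocyte library 2 and 2.74 in EAE-vehicle astrocyte library 1. In microglia it reached 1.74, in naive library 4. Genes with signal numbered 6728 to 22981 in astrocyte libraries and 8710 to 20398 in microglia libraries. A few astrocyte libraries stood apart by this number, naive library 1 with the most, EAE-vehicle library 2 and, with the fewest, EAE-vehicle library 1, and calls of members that change without all 3 are given with their value. Across genes, Pearson's r of 2 libraries from 1 group was 0.569 to 0.883 in astrocytes and 0.808 to 0.976 in microglia, where genes are not independent replicates. A gene was called when its fold change exceeded 1.5 and its unadjusted p in limma's moderated test was under 0.05. Benjamini-Hochberg adjusted p-values were computed over all genes tested. A limma p-value sets a difference against the spread between libraries of a group, moderated across genes. Within a cell type each library is from a different mouse. The offset added before the logarithm is not given in the sources used here, and it bears on any fold change where values are low. The annotation marks Gfap, Cd44, Timp1, S1pr3 and Aspg as confounded with another gene, and Serpina3n belongs to a family of close paralogs, so some of their reads may have been shared.

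**Figure D1:**
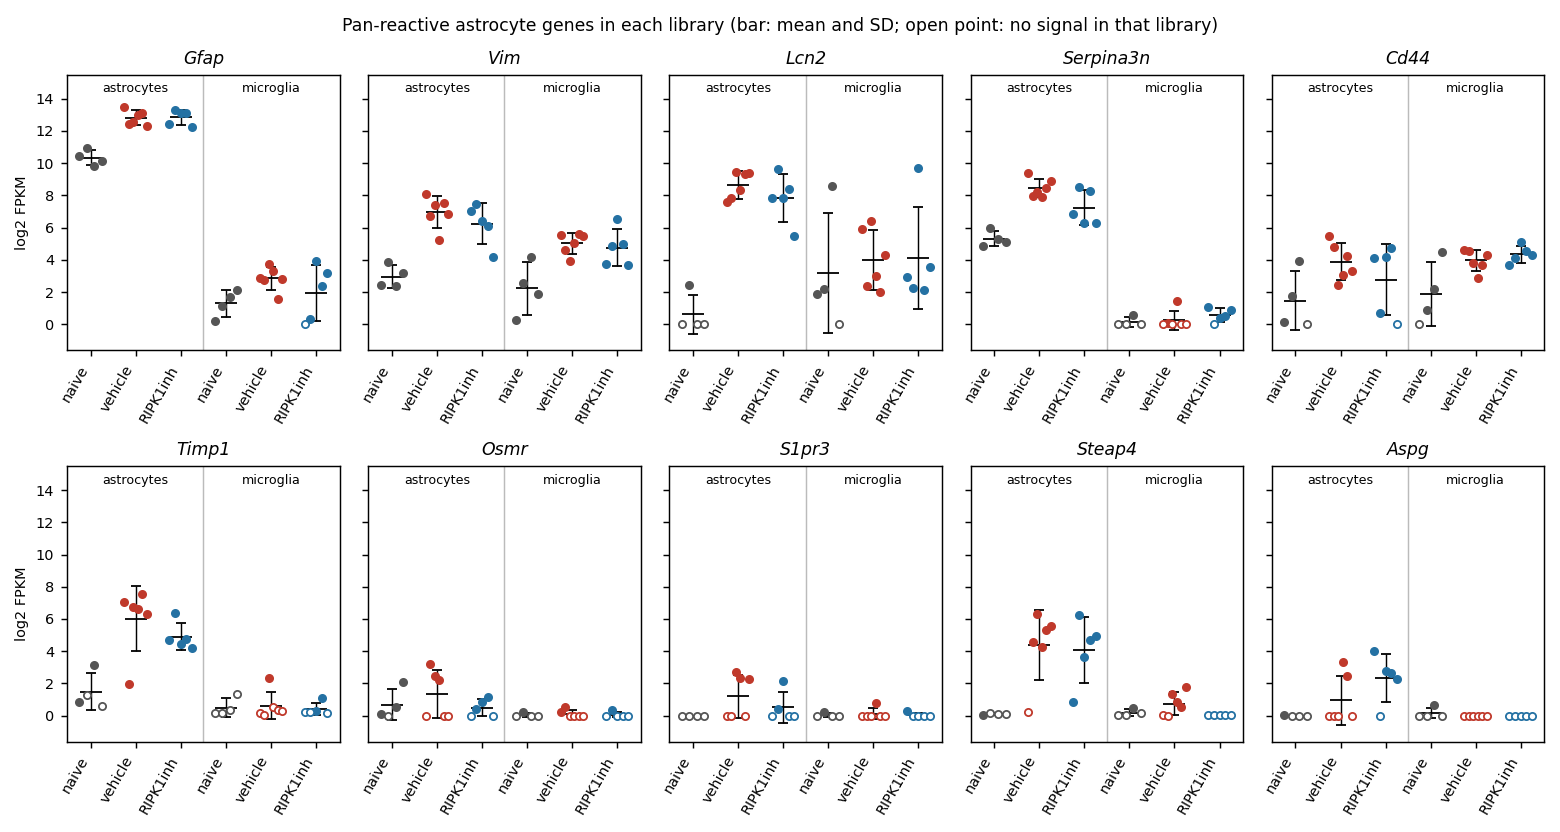
Log2 FPKM of each of the 10 genes in every library of astrocytes (left of the line) and microglia (right), with the mean and SD of each group and open points where the gene had no signal. Gfap was the highest of the 10 in astrocytes of every group, and Lcn2 moved from a mean of 0.62 in naive to 8.65 in EAE-vehicle astrocytes.

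In naive astrocytes Gfap stood far above the other 9, at 10.35 ± 0.49 log2 FPKM (SD, n = 4). Serpina3n at 5.33 ± 0.49 and Vim at 2.97 ± 0.72 followed, and these first 3 levels were separated by more than their SDs. Below them, Cd44 (1.48 ± 1.81), Timp1 (1.48 ± 1.14), Osmr (0.68 ± 0.97) and Lcn2 (0.62 ± 1.21) did not differ from each other beyond their spread, nor Cd44 from Vim, and Steap4, Aspg and S1pr3 averaged 0.10, 0.01 and 0. In EAE-vehicle astrocytes Gfap was again first at 12.82 ± 0.46 (SD, n = 6). Lcn2 at 8.65 ± 0.84 and Serpina3n at 8.47 ± 0.58 came next and differed by less than their SDs, as did Vim at 6.97 ± 0.98 and Timp1 at 6.03 ± 2.04. Steap4 (4.37 ± 2.16) and Cd44 (3.90 ± 1.15) overlapped in turn, and Osmr (1.32 ± 1.49), S1pr3 (1.21 ± 1.34) and Aspg (0.96 ± 1.51) were last and not separable.

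EAE was compared with the naive state to see which members rose in astrocytes during disease. Of 10 members, 7 were called higher in EAE-vehicle than in naive astrocytes (Cd44, Gfap, Lcn2, Serpina3n, Steap4, Timp1 and Vim) and 0 lower. Of all genes tested, 2.69% were called higher and 4.01% lower. An adjusted p under 0.05 was reached by 5 members (Gfap, Lcn2, Serpina3n, Timp1 and Vim), against 0.342% of all genes. In 5 members (Gfap, Lcn2, Serpina3n, Steap4 and Vim) every EAE-vehicle library lay above every naive library, against 1.02% of all genes. Of the 5 members that passed adjustment, 4 or 5 still did when each library was left out in turn. Without naive library 1 and EAE-vehicle libraries 1 and 2 together 3 did, with adjusted p-values in limma of 0.0953 for Serpina3n and 0.142 for Vim. Steap4, which passed without EAE-vehicle library 1, is outside this count. The median difference over the 10 members was 2.81 log2 units and over all genes 0.03. Bulk values cannot tell a change in RNA per cell from a change in the share of a cell type among the sorted cells.

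The intermediate filament genes Gfap and Vim both rose. Gfap (ENSMUSG00000020932, chr11:102887336-102900912, minus strand, GRCm38) encodes the main filament protein of mature astrocytes. Its log2 FPKM was 10.46, 10.97, 9.83 and 10.13 in naive libraries and ran from 12.32 through a median of 12.78 to 13.51 in EAE-vehicle libraries. The highest naive library was thus 1.35 below the lowest EAE library. The difference was 2.47 log2 units (standard error 0.28, adjusted p = 0.000350 from limma, 6 of 6 libraries higher), or 5.56-fold. The exact two-sided permutation test over mice gave p = 0.00952, the smallest that 4 against 6 mice allow. Vim (ENSMUSG00000026728, chr2:13573927-13582826, plus strand) encodes vimentin, the filament partner of Gfap in immature and reactive astrocytes. It read 2.43, 3.89, 2.37 and 3.19 in naive libraries and 5.23 to 8.06, with a median of 7.11, in EAE-vehicle libraries, so the groups were 1.34 apart. Vim rose by 4.00 log2 units (standard error 0.65, adjusted p = 0.00830 from limma), more than Gfap in log2 units but from a level far lower. Of 6 other intermediate filament genes tested, 0 were called by limma in either direction at an unadjusted p under 0.05. Nes, the filament of neural progenitors, read 0.24 ± 0.39 (SD, n = 4) and 1.42 ± 1.19 (SD, n = 6).

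The 3 secreted members showed the widest range of change. Lcn2 (ENSMUSG00000026822, chr2:32384633-32388252, minus strand) encodes lipocalin-2, an iron-siderophore carrier of the acute phase response. It had no signal in 3 of 4 naive astrocyte libraries and read 2.44 in the fourth, naive library 2. In EAE-vehicle libraries it ran from 7.60 through 8.84 to 9.43, and no EAE library came within 5.16 log2 units of a naive one. Its difference of 8.03 (standard error 0.72, adjusted p = 3.19e-05 from limma) was the largest among the members. Serpina3n (ENSMUSG00000021091, chr12:104406729-104414329, plus strand), a secreted serine protease inhibitor, was well above background in naive libraries at 4.88, 6.01, 5.33 and 5.09. In EAE-vehicle libraries it ran from 7.89 through 8.32 to 9.39, with a gap of 1.88 between the groups. It rose by 3.14 (standard error 0.48, adjusted p = 0.00580 from limma), or 8.84-fold. Timp1 (ENSMUSG00000001131, chrX:20870166-20874735, plus strand) encodes an inhibitor of matrix metalloproteinases. It read 0.84, 1.31, 3.13 and 0.62 in naive libraries, without signal in libraries 2 and 4, and 7.05, 1.96, 6.72, 6.63, 7.54 and 6.28 in EAE-vehicle libraries 1 to 6. EAE-vehicle library 2 lay below the highest naive library, and the other 5 were above all 4. Timp1 rose by 4.55 (standard error 0.92), with an adjusted p of 0.0396 in limma and 0.0190 in the exact permutation test. Its adjusted p stayed under 0.05 in 5 of 15 fits that each left out 1 library, those without naive library 3, EAE-vehicle library 2 or EAE-RIPK1inh library 1, 2 or 5, and was at most 0.143 in the others. Its call at the unadjusted cutoff held in 15 of 15. Of 9 metalloproteinase and TIMP genes tested beside it, 3 were called lower and 0 higher, where 4.01% of all genes were called lower and, as above, 2.69% higher. Mmp14, a membrane-bound metalloproteinase, fell by 3.51 (standard error 0.69, adjusted p = 0.0335), Timp3, a matrix-bound inhibitor, by 1.72 (0.43, 0.107) and Cd63, a tetraspanin that binds TIMP-1, by 1.06 (0.27, 0.127), with p from limma. Of 2 lipocalin receptor genes, Slc22a17 was called lower at -2.68 (standard error 0.91, adjusted p = 0.367 from limma).

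The 3 receptor and surface members were lower and less regular. Cd44 (ENSMUSG00000005087, chr2:102811141-102901665, minus strand), a receptor for hyaluronan and osteopontin, read 0.18, 1.79, 3.93 and 0.04 in naive libraries, the last without signal. In EAE-vehicle libraries it read 2.46 to 5.50 with a median of 3.77, and 3 of 6 were above all naive libraries. It was called at 2.41 (standard error 1.06), with an adjusted p of 0.640 in limma and 0.0476 in the exact permutation test. The call was lost without naive library 1 (1.98), 2 (2.52) or 4 (1.93), without EAE-vehicle library 1 (2.09), 2 (2.23) or 5 (2.35), and without naive library 1 and EAE-vehicle libraries 1 and 2 together (1.35). Of 8 hyaluronan and CD44 pathway genes tested, 3 were called higher and 1 lower, against 2.69% and 4.01% of all genes. Spp1, which encodes osteopontin, had no signal in any naive library and read 5.75 ± 1.29 (SD, n = 6) in EAE-vehicle (adjusted p = 0.00901 from limma). Msn and Ezr, which link CD44 to the actin cortex, rose by 3.38 (standard error 0.56, adjusted p = 0.0102 from limma) and 2.77 (0.80, 0.209), and the hyaluronidase gene Hyal1 fell by 2.16 (0.67, 0.272).

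Osmr (ENSMUSG00000022146, chr15:6813577-6874969, minus strand) encodes the receptor chain for oncostatin M, which pairs with gp130. It had no signal in 3 of 6 EAE-vehicle libraries and read 3.23, 2.48 and 2.23 in libraries 2, 3 and 4, against 0.10, 0.53 and 2.10 in 3 naive libraries and no signal in the other. The groups overlapped, and the difference of 0.64 (standard error 0.73) was not called. In the gp130 and STAT3 pathway, 1 of 16 genes was called higher and 1 lower, near the 2.69% and 4.01% of all genes. Stat3 rose by 0.87 (standard error 0.34, adjusted p = 0.521 from limma) from 4.93 ± 0.24 (SD, n = 4), and the ciliary neurotrophic factor receptor gene Cntfr fell by 2.25 (0.92, adjusted p = 0.557). The ligand gene Osm had signal in 1 of 4 naive and 1 of 6 EAE-vehicle libraries, and Il6 likewise. S1pr3 (ENSMUSG00000067586, chr13:51408639-51422797, plus strand), a receptor for sphingosine 1-phosphate, was listed at 0 in 4 of 4 naive libraries and in EAE-vehicle libraries 1, 2 and 5. Libraries 3, 4 and 6 read 2.70, 2.33 and 2.25, and the difference was not called, although it was without EAE-vehicle library 1, 2 or 5, each time at 1.46, and without naive library 1 and EAE-vehicle libraries 1 and 2 together (1.82). Among 9 genes of the sphingosine 1-phosphate pathway 1 was called higher and 3 lower, against 2.69% and 4.01% of all genes. S1pr1, a receptor for the same lipid, fell by 2.55 (standard error 0.40, adjusted p = 0.00683 from limma) from 8.96 ± 0.40 (SD, n = 4), and S1pr5 rose by 3.46 (0.94, 0.164), while Sgpl1 and Sgpp1, which break down the lipid, fell by 1.92 (0.84, 0.646) and 3.23 (0.83, 0.124).

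The 2 enzyme members differed from each other. Steap4 (ENSMUSG00000012428, chr5:7960457-7982213, plus strand), a metalloreductase of iron and copper, read 0.02, 0.16, 0.09 and 0.12 in naive libraries, of which only library 1 had signal. EAE-vehicle library 1 had no signal (0.22), and libraries 2 to 6 read 4.57, 6.31, 4.29, 5.29 and 5.56. Thus 5 libraries were far above all naive ones, and the separation of the first, by 0.06, rests on values without signal. Steap4 rose by 4.27 (standard error 1.10), with an adjusted p of 0.127 in limma and 0.00952 in the exact permutation test. Without EAE-vehicle library 1 it rose by 5.11, with an adjusted p of 0.0150 in limma. Of 3 other STEAP family genes, 0 were called by limma at an unadjusted p under 0.05. Aspg (ENSMUSG00000037686, chr12:112106679-112127559, plus strand), an asparaginase, had signal in only 1 of 4 naive libraries, at 0.02, and in 2 of 6 EAE-vehicle libraries, at 3.31 and 2.44 in libraries 4 and 5. Its difference of 0.95 (standard error 0.83) was not called.

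The bases upstream of the start sites of Lcn2, Serpina3n and Steap4, all called in EAE, are shown because Lcn2 and Steap4 hold letters that few promoters hold and because Serpina3n was the only member called with RIPK1inh-1. Upstream stretches of 250 bases were taken from RefSeq (GRCm38.p6), where 10 of 10 members were matched, and bases inside an annotated untranslated region were left out of the print. Capitals mark matches on either strand to TTCNNNGAA (STAT), TGANTCA (AP-1), the NF-kB-like pattern (GGG, 5 free bases, CC) or TTGCNNAA (C/EBP-like), some of which overlap, and each line runs 5′ to 3′ on the strand of the gene.
Lcn2, chr2:32387798-32387989, minus strand: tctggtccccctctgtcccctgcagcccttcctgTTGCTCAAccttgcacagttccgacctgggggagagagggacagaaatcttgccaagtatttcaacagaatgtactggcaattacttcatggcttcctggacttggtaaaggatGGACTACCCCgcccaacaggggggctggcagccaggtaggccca
Serpina3n, chr12:104406458-104406707, plus strand: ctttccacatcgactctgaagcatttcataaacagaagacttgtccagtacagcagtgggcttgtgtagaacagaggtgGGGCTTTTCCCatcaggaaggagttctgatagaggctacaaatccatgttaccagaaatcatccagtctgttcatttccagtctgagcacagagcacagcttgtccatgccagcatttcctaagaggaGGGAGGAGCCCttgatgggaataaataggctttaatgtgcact
Steap4, chr5:7960222-7960456, plus strand: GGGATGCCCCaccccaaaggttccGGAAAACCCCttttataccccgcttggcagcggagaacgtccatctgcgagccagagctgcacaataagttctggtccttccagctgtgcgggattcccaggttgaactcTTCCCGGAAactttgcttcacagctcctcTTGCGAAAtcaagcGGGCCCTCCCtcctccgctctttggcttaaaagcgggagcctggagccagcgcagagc

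Steap4 was the only member with the STAT letters, at -116 to -108 from its start site, and it held the C/EBP-like letters at -87 to -80. Lcn2 held the C/EBP-like letters at -216 to -209. Over 32851 promoters, 7.02% held the STAT letters and 9.56% the C/EBP-like letters, against 1 and 2 of 10 members. The NF-kB-like pattern was in 8 of 10 members and in 45.8% of all promoters, and the AP-1 letters were in 0 members and 6.75% of all. A match is a description of the letters and not a binding site, and no match says only that the letters are not in this window.

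Markers of several other cell types moved with EAE in the same astrocyte libraries. The mean log2 FPKM of 10 astrocyte markers was 8.17 to 9.19 in naive and 6.34 to 7.84 in EAE-vehicle libraries, and 6 of 10 were called lower, against 4.01% of all genes, while Gfap rose. The mean of 8 T cell markers was 0.38 to 1.43 in naive and 1.46 to 5.90 in EAE-vehicle libraries, with 6 of 8 called higher, although the sort was on CD45- cells. For 8 monocyte and macrophage markers the means were 0.90 ± 0.67 (SD, n = 4) and 4.13 ± 1.15 (SD, n = 6), with 6 of 8 called higher. The ranges were, for 8 neutrophil markers 0.04 to 1.38 and 1.34 to 2.87 (1 of 8), for 7 oligodendrocyte markers 5.58 to 6.81 and 6.45 to 9.58 (3 of 7), and for 8 microglial markers 1.17 to 2.99 and 2.11 to 4.12 (2 of 8). For 6 neuron markers they were 4.30 to 5.41 and 5.26 to 6.07 (1 of 6). Of the other lists, 0 of 6 endothelial, 0 of 4 oligodendrocyte precursor and 0 of 5 ependymal markers were called. Of 6 fibroblast and mural markers 0 were called higher and 2 lower. Of the T cell markers, Cd3d, Cd2 and Lck had no signal in any naive library. EAE-vehicle library 4 had the lowest means of the EAE-vehicle group for T cells (1.46) and monocytes (2.42), and in it Lcn2 read 8.31, Timp1 6.63, Serpina3n 7.89, Gfap 13.01 and Vim 5.23. Each of these 5 values was above all 4 naive libraries, and Serpina3n and Vim were at their lowest of the EAE-vehicle group there. The part of the other markers in the rise of the members was not tested.

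**Figure D2:**
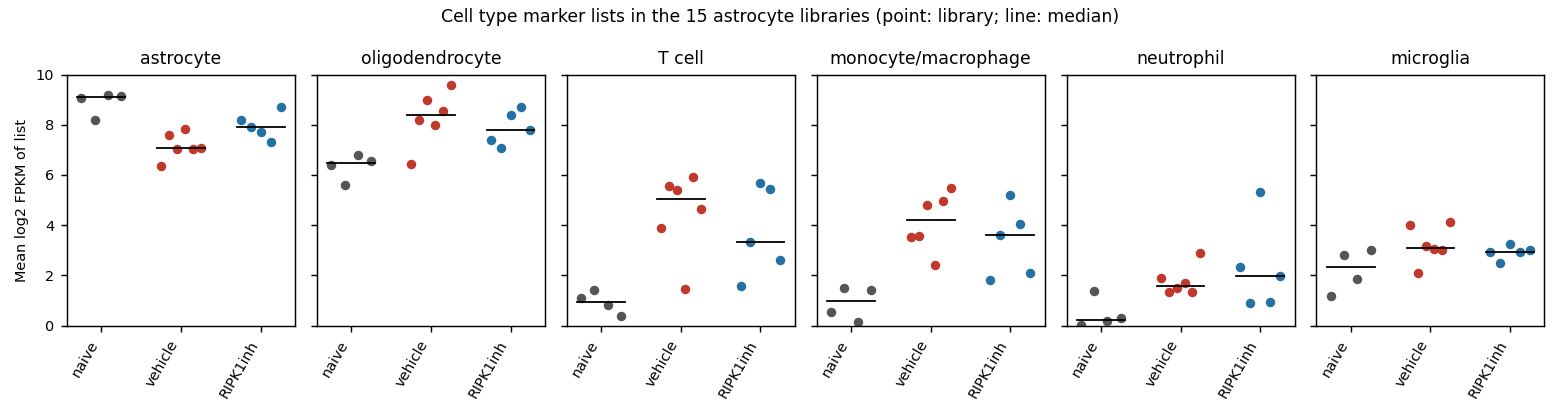
Mean log2 FPKM of 6 lists of cell type markers in each of the 15 astrocyte libraries, by group, with the group's median as a line. The T cell list ran from 0.38 to 1.43 in naive and from 1.46 to 5.90 in EAE-vehicle libraries, and the astrocyte list was lower in EAE-vehicle than in naive libraries.

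RIPK1inh-1 was compared with vehicle to see whether the inhibitor changed the reactive state. Serpina3n was the only member called, and lower, against 1.18% of all genes called lower. No member was called higher, against 1.84% of all genes, and by limma 0 of 10 had an adjusted p under 0.05 and 1 of 10 an unadjusted p under 0.05. The median difference over the members was -0.77 log2 units and over all genes -0.03, with 8 of 10 members on the lower side. Serpina3n read 6.88, 8.52, 6.27, 8.27 and 6.29 in the 5 EAE-RIPK1inh libraries, against 7.89 to 9.39 with vehicle. Libraries 1, 3 and 5 lay below every vehicle library, whereas libraries 2 and 4 lay within the vehicle range. The mean was 7.24 ± 1.08 (SD, n = 5) against 8.47 ± 0.58 (SD, n = 6), a fall by 1.23 (standard error 0.45, adjusted p = 0.840 from limma). The exact two-sided permutation test gave p = 0.0606, where the smallest that 5 against 6 mice allow is 0.00433. Without EAE-RIPK1inh library 3 the difference was -0.98 and Serpina3n was no longer called.

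The filament genes did not pass the test. Gfap read 12.43, 13.32, 13.12, 13.12 and 12.23 with RIPK1inh-1, which spans almost the same range as with vehicle, and differed by 0.02 (standard error 0.26). Vim read 7.01, 7.49, 6.43, 6.11 and 4.17, with library 5 below every vehicle library, and differed by -0.72 (0.61). Among the secreted members, Lcn2 read 7.84, 9.63, 7.86, 8.41 and 5.47, so that library 2 was above and library 5 below the whole vehicle group, and it differed by -0.81 (0.68). Timp1 read 4.69, 6.37, 4.48, 4.76 and 4.21, and 4 of these 5 were below 5 of 6 vehicle libraries and above the sixth, library 2 at 1.96. Its difference of -1.13 (0.87) was not called, but leaving out EAE-vehicle library 2 gave -1.94 (standard error 0.54) with an adjusted p of 0.858 in limma, and a call. Without naive library 1 and EAE-vehicle libraries 1 and 2 it was -1.89 and called. Mmp14, which had fallen in EAE, was called higher with RIPK1inh-1, at 3.55 ± 1.24 (SD, n = 5) against 1.13 ± 1.14 (SD, n = 6), a difference of 2.42 (standard error 0.65, adjusted p = 0.840 from limma).

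The receptors and enzymes were also not called. Cd44 read 4.13, 0.74, 4.19, 4.77 and 0.05, the last without signal, so 3 libraries were at vehicle levels and 2 below every vehicle library. Osmr read 0.42, 0.88 and 1.15 in libraries 2, 3 and 4 and had no signal in libraries 1 and 5, and S1pr3 had signal in libraries 2 and 3 only, at 0.43 and 2.18. Steap4 read 0.87, 6.26, 3.66, 4.67 and 4.95, with library 1 far below the other 4, and differed by -0.29 (standard error 1.03). Aspg went the other way, with 3.99, 2.79, 2.63 and 2.28 in libraries 1, 3, 4 and 5 and no signal in library 2. Its difference of 1.38 (0.78) was called only without EAE-vehicle library 4 (1.85) or EAE-RIPK1inh library 2 (1.96). Among pathway partners, S1pr1 was called higher by 0.94 (0.38) and S1pr5 lower by 2.37 (0.89), and the hyaluronan synthase gene Has1 higher by 1.38 (0.55), each with an adjusted p of 0.840 from limma. Marker lists moved as well. With RIPK1inh-1 3 of 10 astrocyte markers were called higher (median difference 0.68). The median was -0.74 for the 8 T cell markers, of which 0 were higher on average and 0 called by limma at an unadjusted p under 0.05, and -0.87 for the 8 monocyte and macrophage markers, of which 1 was higher and 0 called, beside -0.77 for the members. The T cell list mean was 3.73 ± 1.78 (SD, n = 5) against 4.48 ± 1.64 (SD, n = 6), and the monocyte list mean 3.36 ± 1.41 against 4.13 ± 1.15. For 6 neuron markers the list mean ran from 3.88 to 5.34, against 5.26 to 6.07 with vehicle (median difference -0.85, 1 called lower), and for 5 ependymal markers from 0.28 to 2.28, against 0.86 to 3.19 (median -0.79, 1 called lower). The part of these markers in the members' values was not tested.

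EAE-RIPK1inh astrocytes were also compared with naive astrocytes. The comparison shares its EAE-RIPK1inh libraries with that against vehicle and its naive libraries with that of vehicle against naive, so the 3 are not independent. Of the members, 7 were called higher (Aspg, Gfap, Lcn2, Serpina3n, Steap4, Timp1 and Vim), against 1.98% of all genes. An adjusted p under 0.05 was reached by 2 (Gfap and Lcn2), against 0.124%, and 6 (Gfap, Lcn2, Serpina3n, Steap4, Timp1 and Vim) did not overlap with the naive group, against 0.785%. The median difference was 2.41 over the members and -0.01 over all genes. Gfap, at 12.84 ± 0.48 (SD, n = 5), was higher than naive with an adjusted p of 0.000620 in limma, beside 0.000350 with vehicle. Lcn2 was 7.22 higher (0.75, 0.000196), Vim 3.27 (0.67, 0.101), Timp1 3.43 (0.96, 0.396) and Steap4 3.98 (1.15, 0.417). For Serpina3n the difference from naive was 1.92 (standard error 0.50, adjusted p = 0.306 from limma), beside 3.14 with vehicle, and the lowest EAE-RIPK1inh library was 0.26 above the highest naive library. Aspg was 2.33 higher (0.86, 0.800), while Cd44 (1.29, standard error 1.10) and Osmr (-0.19, 0.76) were not called. Over all genes, 812 of 30718 were called lower than in naive astrocytes. In the same comparison 4 of 8 T cell, 3 of 8 monocyte and macrophage, 2 of 8 neutrophil, 1 of 8 microglial and 3 of 7 oligodendrocyte markers were called higher and 4 of 10 astrocyte markers lower. Their part in the members' values was not tested.

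**Figure D3:**
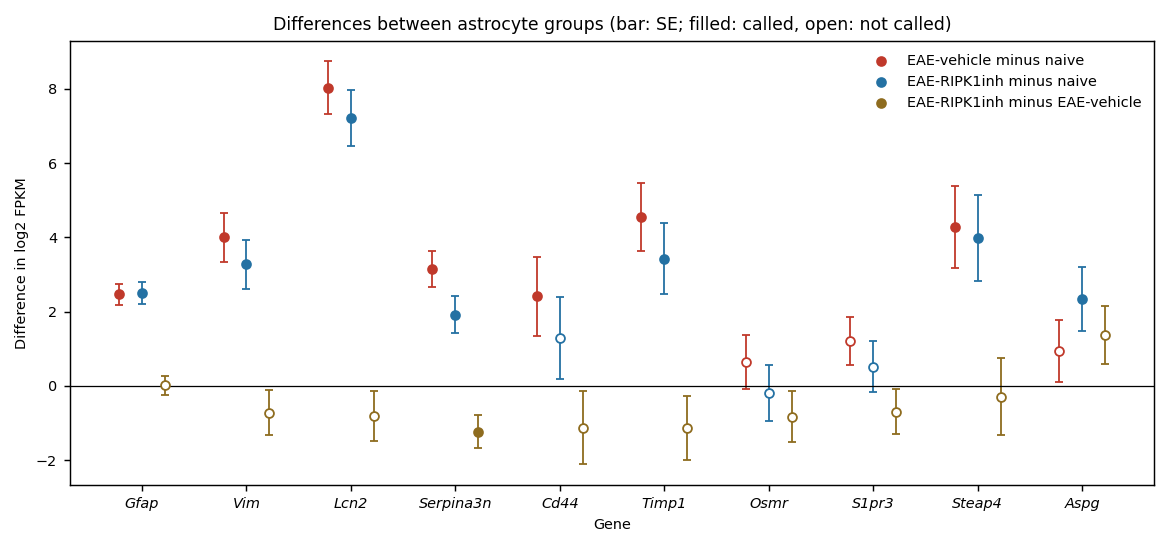
Differences in mean log2 FPKM between astrocyte groups for each of the 10 genes, with standard errors and filled points where the gene was called. The rise of Lcn2 over naive was 8.03 with vehicle and 7.22 with RIPK1inh-1, and Serpina3n is the only filled point for RIPK1inh-1 against vehicle, at -1.23.

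The libraries of a group were then ordered by each member. In the EAE-vehicle group the first place for the 5 members with signal in all 11 EAE libraries (Gfap, Vim, Lcn2, Serpina3n and Timp1) fell to library 1 for 3, library 3 for 1 and library 5 for 1. Library 1 was also the lowest of the group for Lcn2 and without signal for Steap4. The EAE-RIPK1inh group was more uniform, because library 2 was the highest for 5 of 5 and library 5 the lowest for 4 of 5, the exception being Serpina3n. The mean of all 10 members was 3.96 in EAE-RIPK1inh library 5, against 4.78 to 5.39 in the other 4 libraries of the group and 4.95 to 5.82 with vehicle. EAE-RIPK1inh library 5 had a T cell marker mean of 2.63 and a monocyte marker mean of 2.11, both second lowest of its group. It also had the fewest genes with signal of its group, 9898, and the highest astrocyte marker mean, 8.70. The part of any of these in its member values was not tested.

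**Figure D4:**
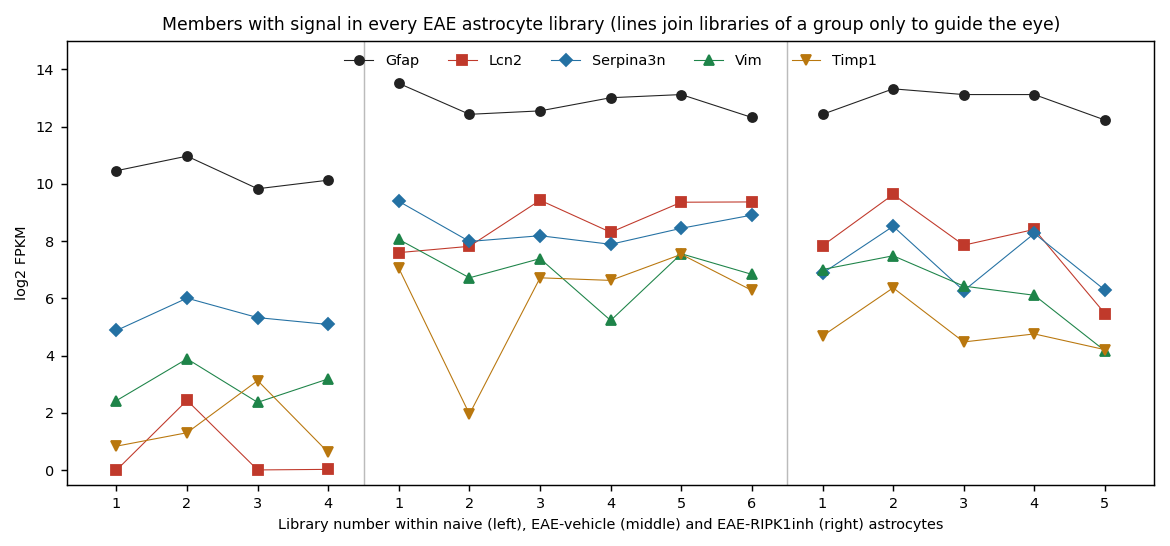
Log2 FPKM of Gfap, Lcn2, Serpina3n, Vim and Timp1 in each astrocyte library, numbered within its group. Timp1 drops to 1.96 in EAE-vehicle library 2, and 4 of the 5 genes are lowest in library 5 of the EAE-RIPK1inh group.

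Microglia served as the reference cell type. In naive mice 2 members (Gfap and Serpina3n) were called higher in astrocytes than in microglia, against 9.64% of all genes. With vehicle 8 were (all but Aspg and Cd44), against 10.0%, and with RIPK1inh-1 7 (Aspg, Gfap, Lcn2, Serpina3n, Steap4, Timp1 and Vim), against 10.0%. No member was called higher in microglia in any group. Of 30952 genes, 3103, 3838 and 3624 were called higher in microglia in naive, EAE-vehicle and EAE-RIPK1inh mice. An adjusted p under 0.05 in limma was reached by 6 members with vehicle and 5 with RIPK1inh-1, beside 4272 and 4012 of all 30952 genes in either direction. With vehicle, Osmr and S1pr3 each had no signal in 3 of 6 astrocyte libraries. Their adjusted p-values in limma were 0.0811 and 0.0856, and each had p = 0.182 in the exact permutation test. Osmr was not called without EAE-vehicle astrocyte library 2 (0.81), nor S1pr3 without library 3 (0.78). With RIPK1inh-1, the Vim call was lost without astrocyte library 1 (1.29), 2 (1.17) or 3 (1.43) or microglia library 1 (1.22) or 5 (1.21) of that group. In the naive group Lcn2 was called higher in microglia without naive microglia library 4 (-3.60) or EAE-RIPK1inh microglia library 3 (-2.56). With RIPK1inh-1 Cd44 was called higher in microglia without astrocyte library 4 (-2.06). The median difference over the members was 0.28, 2.78 and 3.03 log2 units in naive, EAE-vehicle and EAE-RIPK1inh mice, against 0.01, 0.05 and 0.03 over all genes. Gfap in microglia libraries read 0.23 to 2.11 in naive and 1.57 to 3.75 in EAE-vehicle mice, 9.05 (standard error 0.61) and 9.97 (0.50) below astrocytes. Serpina3n had signal in 1 of 4 naive, 2 of 6 EAE-vehicle and 4 of 5 EAE-RIPK1inh microglia libraries and never exceeded 1.47. Timp1 reached at most 2.33 and had signal in 3 of 15 microglia libraries. Cd44, by contrast, read 3.97 ± 0.66 (SD, n = 6) in EAE-vehicle microglia, -0.07 (standard error 0.81) apart from astrocytes.

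In EAE, 3 members were called higher in microglia (Cd44, Gfap and Vim), against 6.13% of all genes, and 1 had an adjusted p under 0.05 (Vim), against 2.37%. The median over the members was 0.34 and over all genes -0.02. In the same libraries 5 of 8 monocyte and macrophage markers were called higher. The mean of all 8 went from 2.86 ± 0.96 (SD, n = 4) to 5.93 ± 1.16 (SD, n = 6). The mean of 8 microglial markers went from 10.85 ± 0.33 to 8.88 ± 0.21, with 7 of 8 called lower, against 1698 of 28958 genes. For 10 astrocyte markers the means were 1.94 ± 0.20 and 2.00 ± 0.14, with 1 called higher and 1 lower. The part of these markers in the members' rise in microglia was not tested. Vim read 0.26, 2.58, 4.19 and 1.91 in naive and 3.91 to 5.62, with a median of 5.25, in EAE-vehicle microglia, where 5 of 6 were above all naive libraries. It rose by 2.80 (standard error 0.69, adjusted p = 0.0338 from limma). The adjusted p stayed under 0.05 in 7 of 15 fits that each left out 1 library and rose to at most 0.0981 in the others, those without naive library 1, 2 or 4 or EAE-vehicle library 1, 2, 4, 5 or 6. Cd44 read 0, 0.88, 2.17 and 4.52 in naive and 2.87 to 4.62 in EAE-vehicle microglia and rose by 2.07 (0.68, 0.130), the highest naive library, 4, lying inside the EAE range. Gfap was called at 1.56 (0.73, 0.370), a call that was lost in 9 of 15 fits that each left out 1 library. Those fits left out naive library 1 (1.20), 2 (1.52) or 3 (1.69), EAE-vehicle library 1 (1.55), 2 (1.57), 3 (1.38), 4 (1.47) or 6 (1.57), or EAE-RIPK1inh library 4 (1.56). The Gfap call was also lost with no variance trend (1.56), library weights (1.41) or the number of genes with signal as a covariate (1.62). With RIPK1inh-1 against vehicle 1 member (Steap4) was called lower in microglia, against 0.701% of all genes, and the median was -0.07 over the members and -0.02 over all genes. Steap4 had signal in 4 of 6 vehicle libraries, at 0.53 to 1.76, and in 0 of 5 RIPK1inh libraries, and differed by -0.70 (standard error 0.27), with an adjusted p of 0.930 in limma and 0.0909 in the exact permutation test. It was not called without EAE-vehicle library 3 (-0.58) or 6 (-0.50). Against naive microglia, 2 members were called higher with RIPK1inh-1 (Cd44 at 2.45 and Vim at 2.53), against 5.35% of all genes, with medians of 0.22 and -0.03.

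Lcn2 was the most scattered member in microglia. It read 1.88, 2.22, 8.57 and 0.05 in naive microglia, 5.92, 2.40, 6.44, 3.01, 2.01 and 4.29 with vehicle and 2.92, 2.27, 9.73, 2.16 and 3.55 with RIPK1inh-1. Library 3 was the highest in every group, and no comparison of microglia called it. The mean of 8 neutrophil markers was also highest in those libraries, at 9.78, 9.00 and 10.04, against 4.01 to 6.05, 3.56 to 8.53 and 2.85 to 5.23 in the others of each group. The part of neutrophil transcripts in the microglial Lcn2 level was not tested. In astrocyte libraries the neutrophil mean was at most 1.38, 2.87 and 5.31 in the 3 groups.

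Whether EAE raised a member more in astrocytes than in microglia was tested as an interaction in 1 fit of all 30 libraries. This fit, which also compared astrocytes with microglia, took the libraries as independent, although both cell types came from the same mice. Of the members, 4 were called (Lcn2, Serpina3n, Steap4 and Timp1), all toward astrocytes, against 3.71% of all genes called in that direction. Serpina3n (3.04, standard error 0.62, adjusted p = 0.0106) and Timp1 (4.44, 1.05, 0.0328) passed adjustment in limma, against 0.378% of all genes. The corresponding values for Lcn2 were 7.20 (1.90, 0.0630) and for Steap4 3.71 (1.18, 0.161). With the replicate number as a block, the adjusted p in limma was 0.0897 for Serpina3n and 0.0686 for Timp1, so neither passed. For Timp1 the adjusted p was under 0.05 in 20 of 30 fits that each left out 1 library and at most 0.0794 in the others, those without naive astrocyte library 1 or 4, EAE-vehicle astrocyte library 3 or 5, naive microglia library 3 or 4 or EAE-vehicle microglia library 1, 2, 5 or 6. The interaction was not called for Gfap (0.92, standard error 0.79), Vim (1.20, 0.96) or Cd44 (0.34, 1.28), the 3 that were called higher in both cell types. The median over the members was 1.17 and over all genes 0.05. Over all genes 1149 were called toward astrocytes and 1537 toward microglia, a split that turned to 1550 and 1231 with libraries centred on their medians, which moved the median of all genes to 0.18, and 4 members were called there too. Marker lists moved in the same test. Toward astrocytes, 5 of 8 T cell markers (median 3.66), 6 of 8 microglial (3.15) and 3 of 7 oligodendrocyte markers (1.77) were called, and toward microglia 6 of 10 astrocyte markers (-1.58), and their part in the members' interaction was not tested. For RIPK1inh-1 against vehicle, the interaction was called for 1 member (Serpina3n at -1.55, standard error 0.58, adjusted p = 0.948 from limma), against 1.49% of all genes called lower. The median was -0.69 over the members and -0.01 over all genes.

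**Figure D5:**
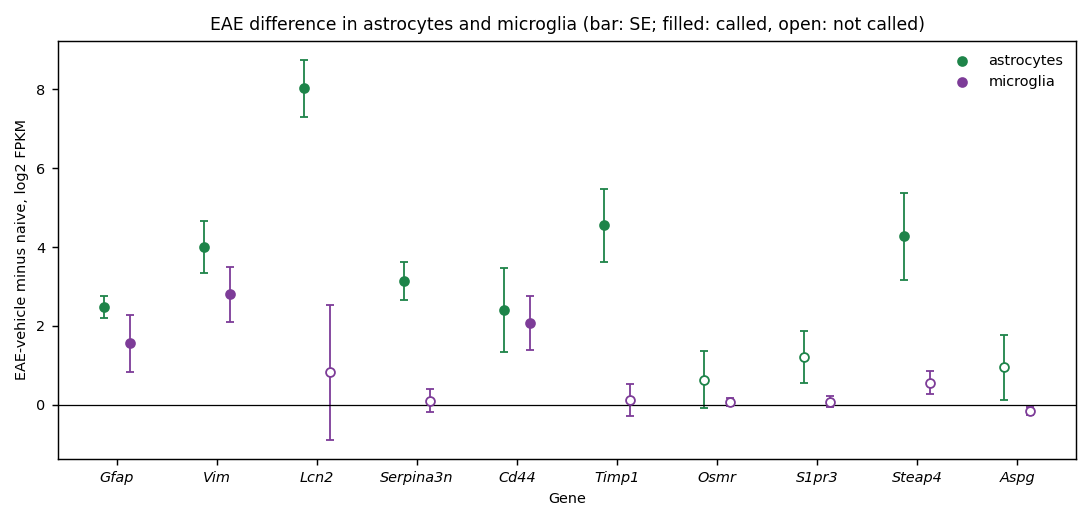
Difference between EAE-vehicle and naive mice in mean log2 FPKM, with standard errors, for each of the 10 genes in astrocytes and in microglia. Lcn2, Serpina3n, Timp1 and Steap4 rose by 3.14 to 8.03 in astrocytes and were not called in microglia, while Gfap, Vim and Cd44 were called in both.

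Of the 3 other genes of the pan-reactive panel, Cxcl10, a chemokine for T cells, read 0.20 ± 0.12 (SD, n = 4) in naive and 6.55 ± 1.72 (SD, n = 6) in EAE-vehicle astrocytes (6.35 higher, standard error 0.74, adjusted p = 0.000395 from limma). Hspb1, a small heat shock protein, rose by 3.91 (0.83, 0.0495), and Cp, the ferroxidase ceruloplasmin, differed by 1.19 (1.18, 0.835) and was not called. In microglia Cxcl10 rose by 5.55 (0.62, 9.36e-05) and Cp by 2.09 (0.48, 0.0216), while Hspb1 fell by 3.71 (0.74, 0.00859), with p from limma. RIPK1inh-1 against vehicle called none of the 3 in astrocytes, and Cp, at -1.26 (standard error 0.45), in microglia. Beside the pan-reactive members, 8 of 12 A1 genes and 2 of 12 A2 genes were called higher in EAE-vehicle than in naive astrocytes, against 2.69% of all genes, with medians of 4.04 and 0.33. Psmb8, an immunoproteasome subunit, rose by 8.78 (standard error 0.37, adjusted p = 8.89e-09 from limma) and the interferon-induced GTPase genes Gbp2 and Iigp1 by 7.91 (0.43, 1.03e-07) and 7.85 (0.44, 1.06e-07), and of the A2 genes S100a10 rose by 2.45 (0.52, 0.0495) and Tgm1 by 4.35 (1.17, 0.152). RIPK1inh-1 against vehicle called 1 of 12 A1 genes lower (Gbp2, by 1.01, standard error 0.40, adjusted p = 0.840 from limma) and 0 of 12 A2 genes at an unadjusted p under 0.05.

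The genes most like a member over the 15 astrocyte libraries were sought among up to 1328 protein-coding genes with signal in all of them, as a description only, since the points share the difference between the 3 groups. For Gfap these were Gbp3 (Pearson's r = 0.912), S100a6 (0.909) and Selenow (0.908), and for Vim S100a6 (0.940), Tmsb4x (0.919) and Psme2 (0.912). For Serpina3n they were Tmsb4x (0.925), Apod (0.899) and Gbp3 (0.894), and for Lcn2 Irgm1 (0.948), Apod (0.947) and Gbp3 (0.943). Gbp3, a guanylate-binding protein, was thus near Gfap, Serpina3n and Lcn2, and its mean was 1.55 in naive, 8.04 in EAE-vehicle and 6.39 in EAE-RIPK1inh astrocytes.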

How the data were processed

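RNA of astrocytes and microglia sorted from the spinal cord was sequenced in 30 libraries, each assigned to its group from the sample labels. OmicSoft Array Studio was the authors' software, and they deposited 1 table of log2 FPKM, which is quantile-normalized, since all sorted libraries are identical. The aligner, annotation release and log offset are not given in the sources used here. Values without signal were recognised by their tied, file-ordered stretch at the bottom of each library. Read depth is unknown, so no counting error was computed. The annotation's positions of 10 of 10 members matched GENCODE M21 (GRCm38).

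On the deposited log2 values, limma 3.58.1 in R 4.3.3 (lmFit, eBayes with a variance trend) fitted each cell type with its 3 groups, and all 6 groups together for cell types and interactions. Calls needed a fold change above 1.5 with an unadjusted p below 0.05, as in the study. The methods name a paired test without saying what pairs the mice, so fits were unpaired. Exact permutation tests, two-sided, used scipy 1.17.1 in Python 3.11.15. The fits of each cell type were tried on simulated data with normally distributed noise. Those data held no values without signal and no uneven libraries, so the trial does not cover these features. The members and all lists were chosen with earlier results of these data known. Named genes are the 10 members, the 3 other genes of the panel, any gene of the A1, A2, partner or marker lists called in the comparison described, and for 4 members the 3 unconfounded protein-coding genes of the highest Pearson's r. Outside this rule, Nes, Osm, Il6, Cd3d, Cd2 and Lck were named after their values were seen. Alternatives were a filter at a mean log2 value of 1, centring, an offset of 1 more, values without signal set to 0, no trend, library weights, the number of genes with signal as a covariate, the replicate number as a block, only the 2 groups compared, and leaving out each library. Leaving out naive library 1 and EAE-vehicle libraries 1 and 2 of astrocytes was added after seeing the data.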

Additional observations from a re-analysis of the deposited data

Results flagged for a closer look

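Some groups hold mostly values without signal, such as Timp1 in naive microglia (4 of 4 libraries) and S1pr3 in EAE-RIPK1inh astrocytes (3 of 5). A single higher value is easily flagged there, so no rate expected by chance can be given. Among 45 groups of a member with a value of at least 1, 10 had a library far from the others. In astrocytes these were Lcn2 in naive library 2 (2.44, the only naive library with signal), Timp1 in EAE-vehicle library 2 (1.96, low) and in EAE-RIPK1inh library 2 (6.37, high), S1pr3 in EAE-RIPK1inh library 3 (2.18, high) and Steap4 in EAE-vehicle library 1 (0.22, without signal). In microglia they were Lcn2 in EAE-RIPK1inh library 3 (9.73), Serpina3n in EAE-vehicle library 4 (1.47) and Timp1 in naive library 4 (1.34, without signal), EAE-vehicle library 3 (2.33) and EAE-RIPK1inh library 4 (1.10), all high. EAE-vehicle astrocyte library 1 had the fewest genes with signal, 6728, and the effect of this on Steap4 was not tested.

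The rise in EAE differed between astrocytes and microglia for Serpina3n by 3.04 log2 units (adjusted p = 0.0106) and for Timp1 by 4.44 (adjusted p = 0.0328), by the interaction term in limma. With the replicate number as a block these adjusted p-values were 0.0897 and 0.0686.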

How the results depend on the processing

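The count of members called in EAE-vehicle against naive astrocytes, 7, was 7 or 8 under every alternative that kept all 15 libraries and 6 or 7 without each library in turn. For RIPK1inh-1 against vehicle in astrocytes the count of 1 was 2 with library weights (Timp1 at -2.03) and without the 3 libraries of the most or fewest genes with signal, and 0 to 2 when each library was left out in turn. In microglia the count of 1 for the same comparison was 0 with 1 more added before the logarithm and with the replicate block, and 0 to 1 without each library. It was also 0 with the filter, but Steap4 was not among the 4 members tested there. Library weights gave 4 members called higher in naive astrocytes than in naive microglia in place of 2, 2 in the interaction with RIPK1inh-1 in place of 1 (1 to 2 without each library), 6 in the EAE interaction in place of 4 (Aspg at 1.79 and S1pr3 at 1.59 added) and 6 in astrocytes against microglia with RIPK1inh-1 in place of 7 (without Vim, 1.44). With vehicle the count stayed at 8, with Aspg (1.61) in place of Vim (1.46). With library weights the EAE differences in astrocytes were -0.03 for Osmr, reversed, and 1.74 for Cd44, no longer called. Aspg (1.65) and S1pr3 (1.60) were called with these weights, at adjusted p-values in limma of 0.332 and 0.227. Gfap with RIPK1inh-1 against vehicle was -0.03 with the number of genes with signal as a covariate, -0.08 with the replicate block and -0.10 to 0.17 without each library. Steap4 in that comparison was -1.12 to 0.51 without each library, and Osmr against naive 0.07 with the replicate block and -0.42 to 0.28 without each library. The cause of these changes was not tested. The 5 members that passed adjustment in EAE astrocytes were 4 with no variance trend or only the 2 groups (without Timp1) and 2 with the replicate block, where Serpina3n and Vim had adjusted p-values of 0.0729 and Timp1 0.276. The block also took the EAE interactions of Serpina3n and Timp1 to 0.0897 and 0.0686. Vim in EAE microglia was at 0.0781 with library weights, 0.0520 with the covariate and 0.146 with the block. Over all genes, 2060 were called in EAE-vehicle against naive astrocytes and 178 passed adjustment, and these counts were 3698 and 726 with library weights, 445 passing with the filter and 61 with the replicate block. Without the 3 libraries, the calls over all genes for RIPK1inh-1 against vehicle in astrocytes went from 564 higher and 363 lower to 316 and 557. Whether the same number in both cell types is the same mouse is not stated in the labels. The deviations of same-numbered libraries correlated at -0.035 to 0.125 between cell types, which cannot exclude a shared mouse. In both cell types the monocyte marker mean was highest in EAE-vehicle library 6 and EAE-RIPK1inh library 3. It was lowest in EAE-vehicle library 4 and EAE-RIPK1inh library 1. Naive library 3 was lowest in astrocytes and highest in microglia. Between groups of a cell type, which are different mice, the correlations were -0.156 to 0.241, over 0.1 in 4 of 26 pairs. With the replicate block 7, 1 and 7 members were called at the unadjusted cutoff in the 3 astrocyte comparisons, the same counts as without it. Unknown depth limits every value near 0, where a gene without signal may be unexpressed or missed.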
